A study of Brassica napus with 15 samples.

Results

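Coding transcripts of the *Brassica napus* accession C032 were compared before and after germination. The 5 libraries of C032 were taken from the 15 of the series, which hold 1 library for each of the accessions C032, C129 and C033 at each of 5 times: dry seed (0), then 2, 12, 36 and finally 72 h of imbibition (hours after imbibition, hai). C032 is a winter oilseed rape accession. For germination, metabolite and hormone assays the study's methods describe imbibition on moistened filter paper at 20 °C in the dark. They name no separate conditions for the RNA libraries. The libraries at 0 hai (dry seed) and 2 hai formed the state before germination, those at 36 and 72 hai formed the state after it, and the library at 12 hai was placed between the states. Each library pooled total RNA of 3 biological replicates of 30 seeds. In the study's assays C032 was the slowest of the accessions to germinate. Most of its seeds had not yet germinated at 36 hai, so that this library mixes germinated and ungerminated seeds. The state after germination is thus defined by time and not by the share of germinated seeds. An accession and its seed lot cannot be told apart, and in RNA of whole seeds fewer cells of a type and less RNA per cell cannot be told apart either.

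A mature seed of the Brassicaceae is an embryo with large cotyledons, filled with oil bodies and storage proteins and protected against drying by late embryogenesis abundant (LEA) proteins and small heat shock proteins. It also stores messenger RNA from maturation. After imbibition the stored messages are degraded, respiration resumes, and genes of fatty acid breakdown and of cell wall loosening are transcribed, followed by those of cell division and of the photosynthetic apparatus. Gibberellin promotes germination, and abscisic acid (ABA) holds it back.

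RNA levels were read as TPM, a measure of transcript abundance corrected for gene length and library size. Reads over coding genes, estimated from coverage, numbered 19360700 to 35897000 per C032 library. Non-coding rows of the table took 10.3 to 32.6% of the coverage in C032, summed without regard to gene length. Of the estimated reads they took 5.82 to 22.3%. Coding TPM summed to between 674325 and 896897. C032 showed 72691 of the 101040 coding genes above 0 in at least 1 library. Genes with a mean of at least 1 TPM over the 15 libraries were tested, 46339 in all. The seed label was checked with marker genes: 8 of 9 tested genes for the oleosin OLE2, the oleosin OLEO3, the caleosin CLO1, the LEA protein LEA4-1 and the storage proteins SESA1 and SESA2 were above 4 TPM in both early libraries. The endosperm loci (ALE1, ZOU) summed to at most 0.37 TPM and the seed coat locus (STK) to at most 0.0899 TPM in every C032 library.

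A large part of the coding transcripts of C032 changed between the states. With limma on log2(TPM + 1), 15186 genes (32.8% of those tested) rose and 4583 (9.89%) fell, 42.7% in all. A gene was called where its log2 change was beyond 1 and its p, after Benjamini-Hochberg adjustment over all genes tested, was under 0.05. Both late libraries lay above both early ones in 54.9% of genes and below them in 21.8%, called or not. The genes that rose were faint in the seed, with a median of 0.956 TPM before and 9.36 TPM after. The genes that fell were abundant in the seed, with a median of 17.7 TPM before and 3.41 TPM after. Among all genes tested the medians were 3.06 and 6.10 TPM. Both groups were called from these same libraries, so that their levels follow in part from the call. Because each time has 1 library, the spread in this test was that between the libraries of a state, pooled over the accessions, and p-values measure only that spread. How rises and falls divided depended on the scaling: rises made up 76.8% of the calls in TPM, 71.9% after coding genes were rescaled to a common total and 58.6% (11329 rises, 7989 falls) with median-of-ratios scaling. The median log2 change of all genes tested was 0.63 in TPM and 0.19 with median-of-ratios scaling.

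The largest step in the shares of coding TPM lay between 12 and 36 hai. The genes that fell held 47.1% of the coding TPM at 0 hai, 44.1% at 2 hai, 31.3% at 12 hai, 5.19% at 36 hai and 3.88% at 72 hai. The genes that rose held 7.85, 8.19, 15.4, 42.4 and 46.1% at the same times. The groups were defined from the libraries at 0, 2, 36 and 72 hai, so that only the share at 12 hai is independent of their choice. That choice also favours small steps within a state, and the steps before and after 12 hai cover unequal lengths of time. The 100 most abundant genes of each library took 27.6% of the coding TPM at 0 hai and 15.1% at 72 hai. Coding genes of at least 1 TPM increased in number from 33885 to 49385 between these times. Coding TPM also summed to less at 0 hai (674325) than at 72 hai (896897), so that a cut of 1 TPM was easier to pass at 72 hai.

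**Figure D1:**
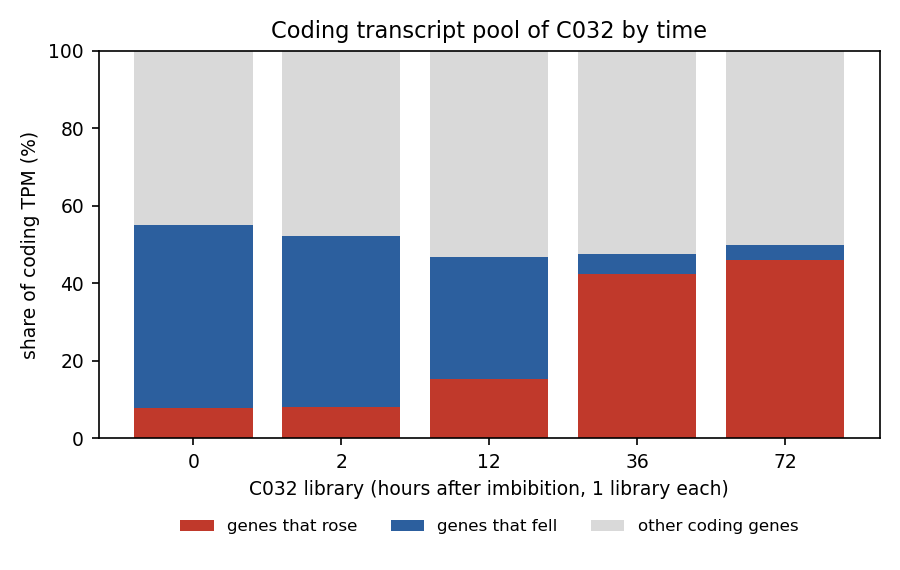
Share of the coding TPM (%, bars stacked to 100) in each of the 5 C032 libraries held by genes that rose, genes that fell and all other coding genes, against hours after imbibition. The blue share of genes that fell shrank from 47.1% at 0 hai to 31.3% at 12 hai and 5.19% at 36 hai.

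Some genes were listed at 0 before germination and above it after, or the reverse. In C032 2530 of the 101040 coding genes were listed at 0 in both early libraries and reached at least 1 TPM in both late libraries. Of these, 1270 were above 0 at 12 hai, 180 had reached 1 TPM by then, and 830 showed the same pattern in both other accessions. Only 160 genes passed the other way, from at least 1 TPM in both early libraries to 0 in both late ones, and 102 of them were still at 1 TPM or more at 12 hai. A value of 0 at this depth does not show that a transcript was absent, and no fold is given against it. Reads over coding genes were fewest at 0 hai (19360700) and most at 72 hai (35897000), and the part of depth in these counts was not tested.

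Lists of genes by role were drawn up from loci that the study had listed as changed in C129 or C033, so that their members were preselected as changing. Of the 1541 tested genes with such a match, 834 rose and 80 fell in C032, with a median log2 change of 1.35. The counts of each list are to be read beside these and beside the 32.8 and 9.89% of all genes tested.

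Transcripts of heat shock proteins, small chaperones that the maturing seed stores, fell furthest among the lists examined. All 7 tested genes of the heat shock list fell, with a median log2 change of −5.97. The most abundant was BnaA03g03740D, a HSP17.6 gene, at 809.3 TPM at 0 hai, 674.1 at 2 hai, 436.2 at 12 hai, 9.02 at 36 hai and 2.18 at 72 hai, a 132.5-fold lower mean after germination (log2 change −7.03, SE 0.46, limma adjusted p = 1.26e-05). The C-genome gene BnaC02g04180D, also of HSP17.6, stood at 516.2, 418.7, 239.1, 5.95 and 0.920 TPM (log2 change −6.99, SE 0.56, limma adjusted p = 3.25e-05). Both late libraries lay far below both early ones, and at 12 hai each gene still stood closer to the early libraries. The plastid chaperone gene HSP21 (BnaC01g20320D) went from 107.5 and 114.1 TPM before to 1.20 and 0 TPM after, and HSP26.5 (BnaC06g05390D) from 66.5 and 64.4 TPM to 0.119 and 0 TPM. The heat shock factor genes HSFA7A (BnaA03g41540D and BnaC07g32600D) fell by 2.64 and 1.96 on the log2 scale. Near-identical copies such as this HSP17.6 pair may share reads, so that the division between them is uncertain. The study's own assay of HSP17.6 RNA also covered the locus BnaC03g05240D, which is not in the pair.

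Desiccation and reserve transcripts fell with them. Of 6 tested genes of the LEA list, 5 fell (median log2 change of the list −3.84). COR15B (BnaC03g23770D), a protective protein of the chloroplast, stood at 58.8, 42.5, 37.7, 0.408 and 0.692 TPM over the time course (log2 change −5.05, SE 0.27, limma adjusted p = 4.99e-06). The pair of LEA4-1 genes, BnaC05g24760D and BnaC05g24660D, fell by 4.15 and 4.01 on the log2 scale. The LEA5 gene BnaC02g28140D was not called, at 1.17 TPM at 36 hai and 0 TPM at 0 and 72 hai.

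Of 9 tested genes of seed storage proteins and oil bodies, 8 fell (median log2 change −3.37), and the exception, a faint SESA1 gene (BnaA03g48460D), was at most 0.47 TPM. Oleosins coat the oil body, and the oleosin-family gene BnaA03g34830D was the most abundant, at 81.3, 76.9, 51.7, 1.86 and 0.147 TPM (log2 change −5.46, SE 0.42, limma adjusted p = 2.53e-05). OLEO3 (BnaC09g27370D) and OLE2 (BnaA07g14960D) fell by 4.65 and 4.44, and the caleosin gene CLO1 (BnaC08g12280D) by 3.56. Among genes of napin, the 2S albumin storage protein, SESA2 (BnaC07g40770D) stood at 23.1 and 31.8 TPM before, 28.2 at 12 hai, 4.69 at 36 hai and 0.301 at 72 hai. The SESA1 gene BnaA01g17200D stood at 21.9 and 26.3 TPM before, 23.48 at 12 hai, 4.57 at 36 hai and 0.393 at 72 hai. At 12 hai these napin transcripts lay between the values of the early libraries. Their calls were less firm: SESA2 was not called without the library at 2 or at 72 hai (log2 changes −3.15 and −2.30), and BnaA01g17200D not without that at 0, 2 or 72 hai (−3.29, −3.04 and −2.17).

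**Figure D2:**
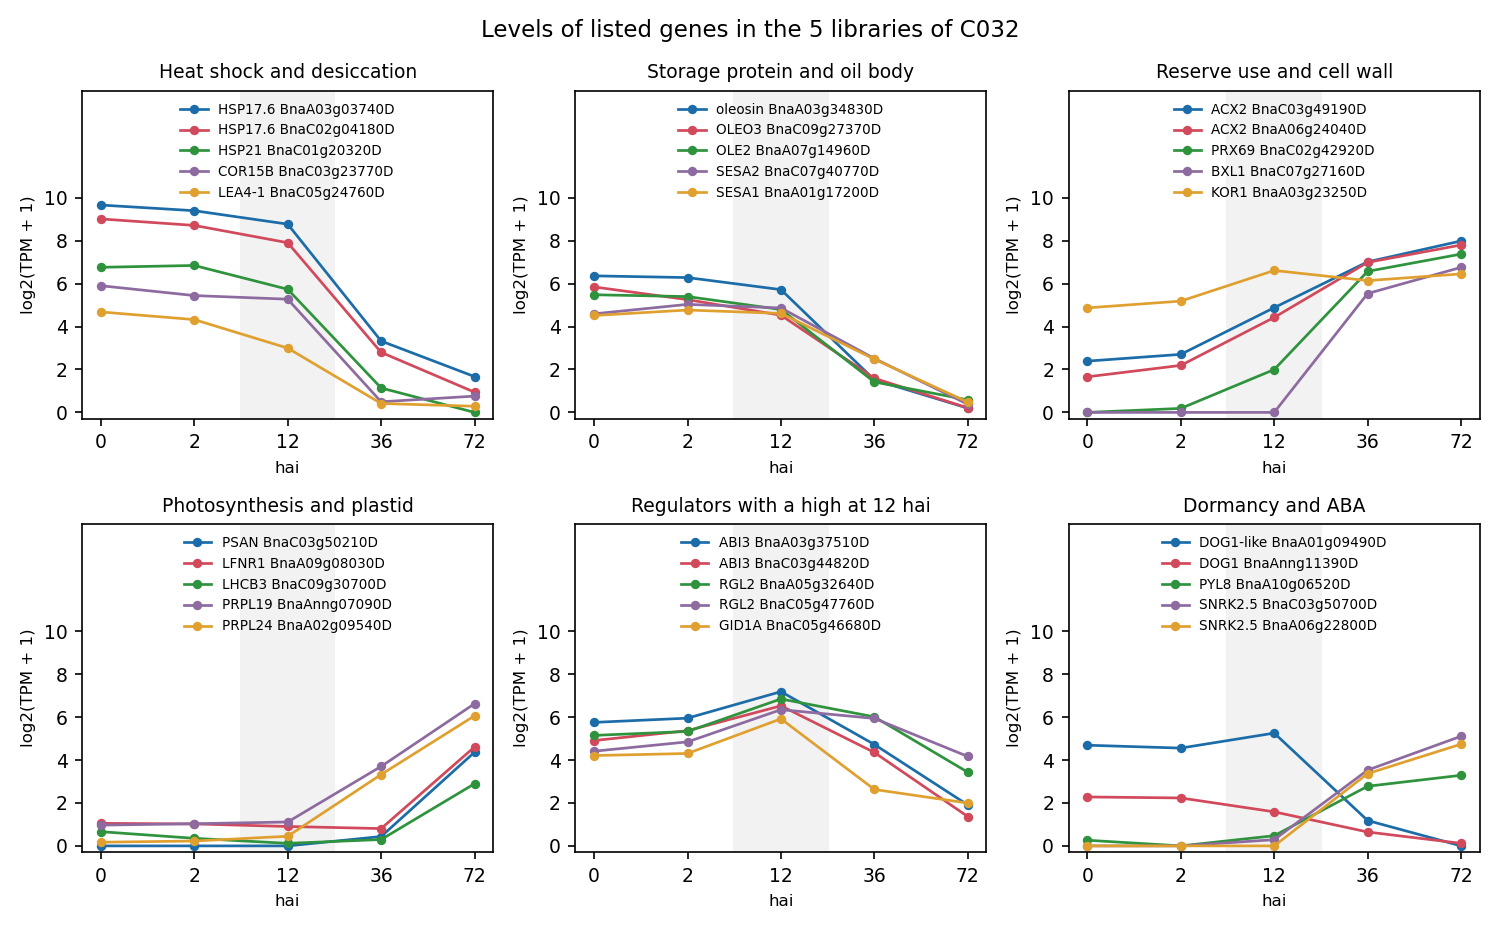
Levels as log2(TPM + 1) of 30 listed genes in the 5 libraries of C032 (x axis, hours after imbibition, categories not to scale; 1 library per point; grey band, 12 hai). Heat shock, LEA, storage protein and oil body genes were lower at 36 hai than at 12 hai, ACX2 and PRX69 rose by 36 hai, PSAN, LFNR1 and LHCB3 stood apart from their earlier levels only at 72 hai, and ABI3, RGL2 and GID1A were highest at 12 hai.

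Beyond these lists, the largest falls among genes with an Arabidopsis match included BnaC02g08060D, matched to DREB2G of the AP2 transcription factor family, which went from 58.7 and 48.7 TPM before to 1.36 and 0.140 TPM after. BnaC04g49020D, matched to the defensin-like trypsin inhibitor TI1, stood at 114, 127.9, 121.6, 13.2 and 0.918 TPM (log2 change −4.55, SE 1.08, limma adjusted p = 0.00818), and was not called without the library at 72 hai (log2 change −3.10). BnaAnng21560D, matched to the methyl-CpG-binding domain protein MBD7, fell by 4.41. The TI1 transcript at 12 hai was within the range of the early libraries, while that of MBD7 had already come down from 23.3 and 23.9 TPM to 6.46 TPM.

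Genes of reserve mobilisation rose. Of 14 tested, 11 rose, 0 fell and 3 did not pass (median log2 change 2.83). With 1 library of C032 left out in turn, 8 to 13 rose. The peroxisomal acyl-CoA oxidase ACX2, which takes the first step in the beta-oxidation of long fatty acids, had the most abundant transcripts. BnaC03g49190D stood at 4.24, 5.52, 28.5, 128.3 and 253.1 TPM, a 39.1-fold higher mean after germination (log2 change 4.96, SE 0.36, limma adjusted p = 1.81e-05). BnaA06g24040D stood at 2.16, 3.56, 20.5, 126.2 and 222 TPM, 60.9-fold higher (log2 change 5.47, SE 0.36, limma adjusted p = 1.2e-05). Both ACX2 genes were above the seed level at 12 hai and continued to climb to 72 hai. The thiolase KAT5 acts later in the same pathway, and its genes BnaC02g38800D and BnaA02g30470D moved later, at 0.214 and 0.327 TPM at 12 hai, 3.15 and 3.32 at 36 hai and 18.6 and 15.4 at 72 hai. The call of BnaC02g38800D was lost without the library at 0 hai (log2 change 2.78). Of the PCK2 genes of phosphoenolpyruvate carboxykinase, an enzyme of the way from oil to sugar, BnaA06g24600D was called (log2 change 2.88, and not without the library at 0 hai, 2.57, or 72 hai, 1.87) and BnaCnng13230D was not (log2 change 2.67, limma adjusted p = 0.071).

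Respiration genes rose almost without exception. Of 37 tested genes of mitochondrial enzymes, complexes and carriers and of sugar breakdown, 35 rose and 0 fell, with a median log2 change of 1.86. With median-of-ratios scaling 28 rose and 1 fell. The most abundant was the ATP synthase delta subunit gene ATPD BnaC02g33050D, at 31.2, 26.2, 44.8, 61.4 and 87.1 TPM (log2 change 1.33, SE 0.26, limma adjusted p = 0.00314). With median-of-ratios scaling its log2 change was 0.75 and it was not called. The largest rises were in PGM1 (BnaA10g07730D), a plastid phosphoglucomutase, at 0.46 and 1.31 TPM before and 18.1 and 37.2 TPM after, and in the outer membrane channel gene VDAC2 (BnaA06g25010D), at 3.01 and 1.79 TPM before and 31.9 and 58.0 TPM after. Both late libraries lay above both early ones in each of these genes. One gene went the other way without being called, the phosphofructokinase gene PFK7 BnaA01g15420D, at 9.98, 9.84, 0.265, 2.49 and 0 TPM, which was picked out after its values were seen.

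Cell wall genes held the largest single rises of the lists. Of 32 tested, 28 rose and 0 fell (median log2 change 2.65), and 10 of those that rose were listed at 0 in both early libraries. The class III peroxidase gene PRX69 BnaC02g42920D stood at 0, 0.137, 2.99, 94.2 and 165.4 TPM (log2 change 6.88 on the log2(TPM + 1) scale, SE 0.50, limma adjusted p = 1.89e-05), and its copy BnaA02g34060D at 0.0793, 0.193, 5.91, 138.7 and 98 TPM. The beta-xylosidase gene BXL1 (BnaC07g27160D) was listed at 0 at 0, 2 and 12 hai and reached 45.5 TPM at 36 hai and 107.2 TPM at 72 hai. COBRA, which orients cell expansion, was represented by BnaA03g39830D at 4.37 TPM at 12 hai and 33.2 and 40.3 TPM after. The cellulose synthesis gene KORRIGAN (KOR1, BnaA03g23250D) was the most abundant of the list and followed another course, at 28.3, 35.4, 97.0, 69.6 and 86.6 TPM, with its highest value at 12 hai. Its log2 change was 1.27 in TPM, and 0.69 and not called with median-of-ratios scaling.

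Among the other large rises, BnaA02g06420D, matched to an aleurain-like cysteine protease, stood at 0.704 and 1.18 TPM before, 2.69 at 12 hai, 77.2 at 36 hai and 226.6 at 72 hai (log2 change 6.12, SE 0.50, limma adjusted p = 3.43e-05). BnaA02g10050D, matched to AT5G53880, was listed at 0 in both early libraries and stood at 3.20, 115.9 and 136.8 TPM from 12 hai on. BnaC09g07530D, matched to the bHLH factor HEC1, was at most 0.132 TPM up to 12 hai and 20.8 and 70.2 TPM after. BnaA02g35200D, matched to the CONSTANS-like factor COL5, went from 0.651 TPM at 12 hai to 16.9 and 73.6 TPM.

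**Figure D3:**
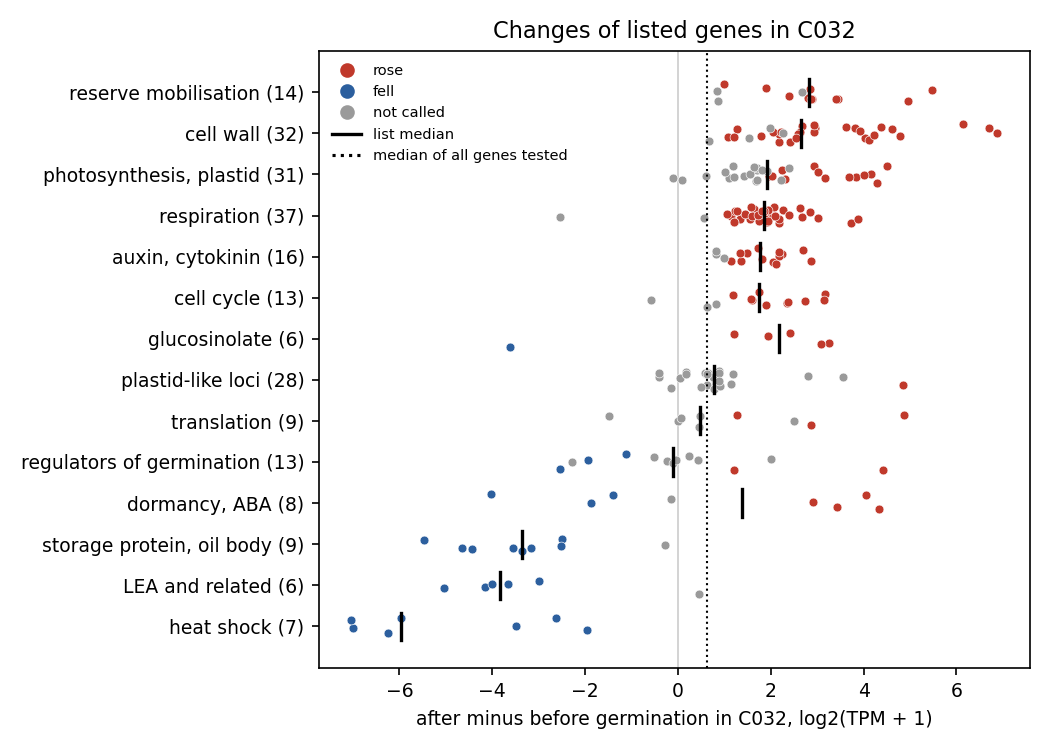
Log2 change of log2(TPM + 1) from before to after germination in C032 for each tested member of 14 gene lists (number of members in brackets), coloured by call; bars mark list medians and the dotted line the median of all genes tested, 0.63. All heat shock genes fell, nearly all respiration and cell wall genes rose, and the translation and plastid-like lists lay near the dotted line.

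Cell division and hormone genes also rose. In the cell cycle list 10 of 13 tested genes rose and 0 fell (median log2 change 1.75), and 6 rose without the library at 2 hai or without that at 72 hai. At 12 hai all 10 stood at most 0.25 of the way from the early to the late level, and the condensin subunit gene SMC4 (BnaA06g31190D) stood at 0.29, 0.761, 0.444, 7.76 and 20.2 TPM. Of 16 tested auxin and cytokinin genes 13 rose and 0 fell (median log2 change 1.78). The auxin repressor gene IAA9 BnaA06g24570D was already at 49 TPM at 12 hai, against 18.8 and 19.7 TPM before and 45.5 and 67.9 TPM after, whereas the cytokinin response regulator gene ARR6 (BnaC03g51340D) was at 0.489 TPM at 12 hai and 8.68 and 8.02 TPM after. With median-of-ratios scaling the log2 change of BnaA06g24570D was 0.91 and it was not called. Of 6 tested glucosinolate genes, which serve defence, 5 rose and 1 fell. The 4 genes of MYB34, a regulator of indole glucosinolates, rose by 1.21 to 3.26, and the epithiospecifier gene ESP (BnaC06g10450D) went from 16.3 and 10.9 TPM before to 0.373 and 0 TPM after. The translation list showed 3 rises among 9 tested genes and at most 1 with any library of C032 left out, and its most abundant member, the initiation factor gene EIFISO4G1 (BnaA02g08040D), stood at 51.6, 73.0, 104.2, 84.8 and 83.6 TPM and was not called.

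Of 31 tested nuclear genes for photosynthesis and the plastid, 13 rose and 0 fell (median log2 change 1.91). With time points as terms shared by the accessions 28 rose. All 13 but the pair of HCF106 genes (BnaC02g15090D, BnaA02g10850D) and a TIC20-V gene (BnaC02g12820D) encode plastid ribosomal proteins. PRPL24 BnaA02g09540D stood at 0.126, 0.171, 0.365, 9.03 and 65.9 TPM (log2 change 4.50, SE 0.81, limma adjusted p = 0.00212), and PRPL19 BnaAnng07090D at 0.955, 1.05, 1.16, 12 and 97.8 TPM. The photosystem I gene PSAN (BnaC03g50210D) was listed at 0 in the first 3 libraries and stood at 0.354 TPM at 36 hai and 19.6 TPM at 72 hai. The ferredoxin reductase gene LFNR1 (BnaA09g08030D) stood at 0.7501 and 23.47 TPM and the antenna gene LHCB3 (BnaC09g30700D) at 0.229 and 6.45 TPM at these times. None of these last 3 transcripts was called, and each late pair of libraries differed by a log2 ratio beyond 1. The number of rises in the list was 9 without the library at 72 hai and 20 without that at 36 hai. From 36 to 72 hai 29 of the 31 genes were higher by a log2 ratio beyond 1, against 22% of all genes tested. The list's count was also 29 after rescaling to a common total (14.9% of all genes) and with median-of-ratios scaling (13.7%). At the Rubisco small subunit gene RBCS1A both loci were too faint to be tested.

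Coding rows of the table that match plastid genes were listed apart, and the part that plastid transcripts take in their reads was not tested. Of 28 such rows 1 rose, matched to the Rubisco large subunit (rbcL, BnaA01g34300D, at 0 TPM at 0 hai, 33.4 TPM at 2 hai, 0 TPM at 12 hai and 91.1 and 306.6 TPM after), and its call was lost without the library at 0 hai (log2 change 2.29) or 72 hai (3.97). The summed level of all 29 rows of the list was 1879, 2407, 1525, 1812 and 5052 TPM over the time course. The most abundant, matched to the plastid RNA polymerase subunit rpoC1 (BnaA01g34230D), stood at 254.3, 287.1, 195.4, 134.1 and 311.8 TPM.

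Genes of dormancy and ABA did not move together. DOG1, a regulator of seed dormancy, fell at BnaAnng11390D from 3.86 and 3.71 TPM before to 0.567 and 0.0858 TPM after (log2 change −1.87, SE 0.38, limma adjusted p = 0.00372). The related gene BnaA01g09490D was the most abundant of the list and stood at 24.8, 22.6, 37.2, 1.27 and 0 TPM. Both tested genes of the ABA receptor PYL8 (BnaA10g06520D, BnaCnng37890D) and both of the kinase SNRK2.5 (BnaC03g50700D, BnaA06g22800D) rose, from at most 0.201 TPM in the early libraries to between 5.87 and 33.5 TPM in the late ones. In all, 4 of the 8 tested genes rose and 3 fell. The median log2 change of the list was 1.38, and −1.40 without the 3 genes that were listed at 0 in both early libraries.

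The regulators of germination that the study named were often highest at 12 hai. Of 13 tested genes 10 stood above all 4 libraries of the states at 12 hai, against 23.9% of all genes tested, and 9 did so with median-of-ratios scaling (11.5%). By a log2 ratio beyond 1, 3 of the 13 did so against 1.67% of all genes, 4 after rescaling to a common total and 1 with median-of-ratios scaling. The study chose these genes with its own libraries in view, so that this count is not independent evidence. ABI3, the transcription factor that maintains the maturation state, stood at 53, 60.9, 144.9, 25.4 and 2.75 TPM at BnaA03g37510D and at 29.1, 40.3, 91.2, 19.4 and 1.58 TPM at BnaC03g44820D. BnaA03g37510D fell (log2 change −2.54, SE 0.89, limma adjusted p = 0.0422), and BnaC03g44820D was not called (log2 change −2.28, limma adjusted p = 0.075). The call of BnaA03g37510D was lost without the library at 0 hai (log2 change −2.64), at 2 hai (−2.44) or at 72 hai (−1.13). RGL2, a DELLA repressor of gibberellin response, stood at 34.5, 39.3, 114.2, 63.6 and 9.80 TPM at BnaA05g32640D and at 20.3, 27.8, 80.5, 60.4 and 16.97 TPM at BnaC05g47760D. The RGL2 genes thus kept a level above that of the seed at 36 hai and not at 72 hai, and neither was called. The gibberellin receptor gene GID1A (BnaC05g46680D) stood at 17.5, 18.8, 59.6, 5.19 and 2.99 TPM and fell (log2 change −1.95, SE 0.30, limma adjusted p = 0.000858). The gibberellin synthesis gene GA1 (BnaA09g01090D) fell by 1.11, and KO1 (BnaC07g28980D) of the same pathway rose by 1.20. The call of KO1 was lost without the library at 0 hai (log2 change 0.98), 36 hai (1.16) or 72 hai (1.24) and with median-of-ratios scaling (0.64). The bHLH gene SPATULA (SPT, BnaA01g00730D) was at most 0.123 TPM up to 12 hai and 19 and 23 TPM after.

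The library at 12 hai was then placed between the states, with 0 for the mean of the early libraries and 1 for that of the late ones on the log2(TPM + 1) scale. The median gene that rose stood at 0.314 and the median gene that fell at 0.0833. Of the genes that fell, 37.9% were higher at 12 hai than the mean before germination, against 5.75% of the genes that rose being lower. Of the genes that rose, 11.3% were early (0.75 or above) and 41.7% late (0.25 or below). This unequal progress depended on the scaling, for with median-of-ratios scaling the medians were 0.167 for genes that rose and 0.295 for genes that fell, the reverse order. After rescaling to a common total they were 0.287 and 0.111.

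In C032 the genes that fell had moved less by 12 hai than in the other accessions under each scaling tried. In TPM their median place was 0.0833 in C032, 0.245 in C129 and 0.272 in C033, each over the accession's own calls. With median-of-ratios scaling the values were 0.295, 0.449 and 0.366, and after rescaling 0.111, 0.234 and 0.196. Over the 3530 genes that fell in all 3 accessions the medians in TPM were 0.0956, 0.292 and 0.270. For genes that rose the place of C032 was between the others in TPM (0.314, against 0.413 in C129 and 0.260 in C033) and below both under the other scalings. With 1 library per accession at 12 hai these differences have no test.

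**Figure D4:**
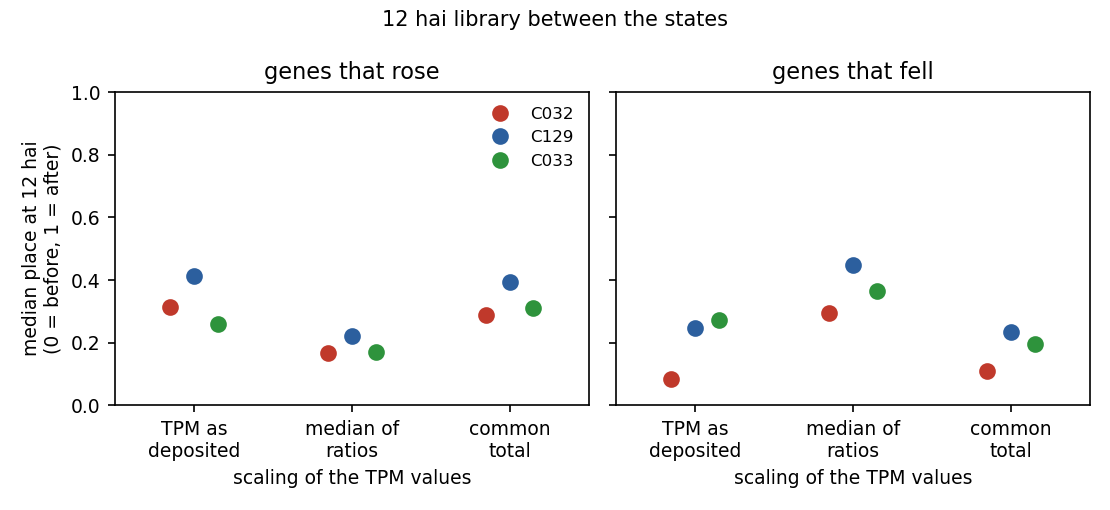
Median place of the 12 hai library between the mean before (0) and the mean after germination (1), for genes called in each accession, under 3 scalings of the TPM values (x axis); each point is 1 accession, from 1 library at 12 hai. For genes that fell C032 was the lowest of the accessions under each scaling, at 0.0833, 0.295 and 0.111.

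Lists of stored transcripts gave named examples of the same difference. Nearly all their tested members are among the genes that fell, and the libraries are the same, so that they add no independent evidence. At 12 hai the summed level of the heat shock list in C032 was 54.6% of its mean before germination, against 22.6% in C129 and 27.9% in C033. Most of that sum is the HSP17.6 pair (1209 of 1406 TPM before germination in C032), and without it the values were 47.0, 18.4 and 28.9%. For the LEA list it was 55.1%, against 14.9 and 26.2%, and for storage proteins and oil bodies 70.5%, against 19.7 and 35.5%. With median-of-ratios scaling the percentages of C032 were 36.1, 36.2 and 46.7, and those of C129 and C033 lay between 9.74 and 28. HSP17.6 BnaA03g03740D stood at 436.2 TPM in C032 at 12 hai, 56.5 TPM in C129 and 111.6 TPM in C033. Before germination the pair also summed to more in C032 (1209 TPM) than in C129 (564.8 TPM) and C033 (846.3 TPM). Levels at 12 hai thus mix the starting level with the loss. For mobilisation genes the level at 12 hai was 16.2% of that after germination in C032, 19.1% in C129 and 15.4% in C033.

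Early risers, at 0.75 or more of the way to the late mean on the log2(TPM + 1) scale at 12 hai, included BnaC02g43700D, matched to the homeodomain factor HB5, at 3.77 and 3.74 TPM before, 27.4 TPM at 12 hai and 33.1 and 62.5 TPM after. BnaA09g06930D, matched to the invertase inhibitor C/VIF2, stood at 7.24 TPM at 12 hai against 9.11 and 12.4 TPM after, and BnaA02g11230D, matched to the trehalose phosphatase TPPA, at 7.35 TPM against 9.65 and 6.77 TPM. Some transcripts stood above both states at 12 hai. By a log2 ratio beyond 1 these numbered 775 (1.67% of genes tested) in C032, 1106 in C129 and 469 in C033, and 358, 507 and 345 with median-of-ratios scaling. After rescaling to a common total they numbered 735, 1248 and 753, so that the order of C032 and C033 depended on the scaling. BnaC05g07430D, matched to RAS1, an ABA and salt response gene, stood at 3.399, 2.60, 18.5, 0.153 and 0.269 TPM in C032 and at 21.01 and 9.58 TPM at 12 hai in C129 and C033. BnaC09g30400D, matched to cytochrome P450 genes of the CYP71B group, stood at 1.47, 1.08, 6.15, 0.225 and 0.184 TPM.

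Within a state the early libraries differed little and the late ones much. From 0 to 2 hai 277 genes (0.598%) were higher and 186 (0.401%) lower by a log2 ratio beyond 1. From 2 to 12 hai 6450 (13.9%) were higher and 816 (1.76%) lower, but 3108 and 2239 with median-of-ratios scaling. From 12 to 36 hai 9168 (19.8%) were higher and 8479 (18.3%) lower. From 36 to 72 hai 10198 (22%) were higher and 2221 (4.79%) lower, and with median-of-ratios scaling 6354 and 4109. Lower steps of C032 were most numerous between 12 and 36 hai under each scaling. Of the genes that rose over germination, 11052 stayed within a log2 ratio of 1 between 36 and 72 hai, 3721 were higher at 72 hai and 413 were lower. Of the genes that fell, 305 regained and 444 went lower still.

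The other accessions entered the same fit. In C129 31.8% of genes rose and 12% fell (43.8% in all), and in C033 25.5% rose and 11.4% fell (36.9% in all). Of its rises 85.1% were also called in C129 and 71.5% in C033, and of its falls 87.2 and 83.0%. Only 12 genes were called in opposite directions in C129 and 10 in C033, while 1792 rises and 313 falls of C032 were called in neither. A missed call does not show a difference. A test of the difference itself set the change of C032 against the mean change of C129 and C033. It called 37 genes with a positive and 37 with a negative log2 difference (0.0798% of genes tested each). With time points as terms shared by the accessions these numbered 896 and 482, so that the counts depend on the model. The main fit did not match the accessions by time. It counted steps between the times of a state as spread, also where the accessions share them. Of the 46339 genes tested, 2878 had an unadjusted p under 0.05 in the main fit, a count that rests on this spread. The sign says whether the log2 change of C032 lay above or below that of the others, not which was larger: of the 37 negative differences 19 were genes that fell in C032. BnaCnng01660D stood at 0.915, 0.560, 3.78, 8.51 and 10.9 TPM in C032 and at most 0.149 TPM in every library of C129 and C033 (log2 difference 2.57, SE 0.32, limma adjusted p = 0.0312). BnaAnng35430D, matched to cellulose synthase-like genes of the CSLG group, stood at 6.78, 6.63, 7.83, 0.0793 and 0.0452 TPM in C032 and at most 0.757 TPM in the others (log2 difference −2.42, SE 0.31, limma adjusted p = 0.0319). Neither count of 37 held without the library of C032 at 0, 2 or 72 hai, and each was then smaller. With any 1 of these 3 libraries left out neither gene was called, while the differences lay between 2.41 and 2.72 for BnaCnng01660D and between −2.43 and −2.39 for BnaAnng35430D.

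By the chromosome in the gene name, genes of the A and C subgenomes changed at nearby rates. Of 22253 tested genes of the A subgenome 33.8% rose and 10.2% fell, and of 23957 of the C subgenome 31.8 and 9.63%. Genes that rose had a median length of 1297 bases, genes that fell 1384 and all genes tested 1367.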

How the data were processed

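The authors made 15 TruSeq libraries from pooled total RNA, read them as paired ends of 100 bases, aligned the reads by HISAT to the genome assembly published by Chalhoub et al. and estimated gene levels by StringTie (for both, the version is not given in the sources used here). The deposited TPM values were computed by the authors over coding and non-coding genes together. The deposited coverage, a signal of mean read depth per gene, served here only to estimate reads (coverage times length over 100), which give depth and no error between seeds. TPM kept its ratio to coverage within 1% in every coding gene.

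Coding rows with a mean of at least 1 TPM were fitted as log2(TPM + 1) with limma 3.58.1 in R 4.3.3 (trend and robust), as accession by state with 6 residual degrees of freedom over all 15 libraries. A fold change on this scale understates low genes. Alternatives were pseudocounts of 0.1 and 5 TPM, other minimums, 2 scalings, each C032 library left out, C032 alone and time as shared terms. Simulated data kept each gene at its accession mean with the real spread, and only a few genes, none of them faint, were changed. In these data 38% of 50 genes changed by a log2 of 2 in C032 and 76% of 50 changed by 3 were recovered, with 3 false calls among 46339. By the test of the difference between accessions 24 and 50% were recovered. Far more genes change in the real data, so that these rates do not carry over to them. Other steps used Python 3.11.15 with pandas 2.3.3, numpy 2.4.6 and matplotlib 3.10.9.

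The gene lists, the tests and the rule for naming genes were chosen with earlier results of these data known. Named were, per list, the most abundant gene and up to 4 with the largest change (any of a list of 16 or fewer), the 12 largest rises and falls with an Arabidopsis match, and 5 each of the largest differences between accessions, of genes highest at 12 hai and of early and late risers. A few of these are given in the text. Matches were at hand for 3060 genes that the study listed as changed in C129 or C033, so that such genes were preselected as changing, and their symbols were recalled and not checked. Copies of a gene may share reads, and use of strand in counting is not given in the sources used here. Gene positions were not used. Fold changes computed by the authors were not used, and metabolite, hormone and germination data were not analysed here.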

Additional observations from a re-analysis of the deposited data

Results flagged for a closer look

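By limma's test of the difference itself, the log2 change of C032 minus the mean log2 change of C129 and C033 was positive in 37 called genes and negative in 37. With time points as shared terms it was positive in 896 and negative in 482. Of those with an Arabidopsis match, BnaC09g45930D had the largest difference (log2 difference 5.07, SE 0.63, limma adjusted p = 0.0312): it was listed at 0 in both early libraries of C032 and stood at 17.3, 3.54 and 4.94 TPM from 12 hai on, while C129 went from 4.66 and 14.2 TPM before to 2.00 and 4.21 TPM after and C033 from 29.3 and 18.9 TPM to 0.900 and 0 TPM. It was not called with any 1 library of C032 left out (limma adjusted p 0.0673 to 0.252). BnaC01g09640D, matched to bHLH genes (log2 difference 2.79, SE 0.30, limma adjusted p = 0.0193), stood at 0.265 and 0.668 TPM in the early libraries of C032 and at 12.6 and 12.4 TPM in those of C129. Its log2 change was −0.50 in C032, not called, −3.57 in C129 and −3.002 in C033. BnaCnng01660D had a log2 difference of 2.57 and BnaAnng35430D one of −2.42, with a larger fall in C032. The non-coding rows, which enter no comparison, held 32.6% of the coverage in C032 at 0 hai, the highest of its libraries, and 10.3% at 72 hai, the lowest. Of the estimated reads they held 22.3% at 0 hai and 5.82% at 72 hai.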

How the results depend on the processing

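Replicates could not be paired, because each accession and time has 1 pooled library. The accessions do share time points, and with these as shared terms 18383 genes rose and 5097 fell. Rises numbered 7495 with a pseudocount of 5 TPM and 7943 with a mean of at least 5 TPM, and falls 2813 with a pseudocount of 5 TPM and 7989 with median-of-ratios scaling. Leaving out 1 library of C032, which leaves an arm with 1 library assumed to vary like the others, gave 11347 to 17486 rises and 3634 to 5041 falls. Positive and negative differences from the log2 change of C129 and C033 numbered 17 and 7 with a pseudocount of 0.1 TPM, 104 and 88 with 5 TPM, 58 and 64 with no minimum, 2 and 5 with a mean of at least 5 TPM, and 896 and 482 with time points as shared terms. With median-of-ratios scaling 59 were negative. Without 1 library of C032 they numbered 0 to 41 and 0 to 25. The median place at 12 hai of genes that rose was 0.396 with a pseudocount of 0.1 TPM and 0.167 with median-of-ratios scaling, and that of genes that fell 0.295 with median-of-ratios scaling. From 0 to 2 hai 2890 genes were higher and 1179 lower with a pseudocount of 0.1 TPM, 49 and 46 with 5 TPM, and 331 were lower with median-of-ratios scaling. From 36 to 72 hai 4794 were higher and 976 lower with 5 TPM, 6354 and 4109 with median-of-ratios scaling, 3337 lower with 0.1 TPM and 3833 lower after rescaling. Members of the lists that rose numbered 96 to 134 and those that fell 23 to 29 without 1 library of C032. Of 3244 repeats over 256 named and listed genes, 2994 kept their call, 193 lost it and 57 gained one, and none changed direction. Most of the lost calls came with a pseudocount of 5 TPM (42) or without the library at 0 hai (30) or 72 hai (34). A TPM below 1 rests on few reads, and the number of libraries limits the precision of every value.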
